A study of Mus musculus with 4 samples.

Results

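The histone mark H4K16ac, an acetyl group on lysine 16 of histone H4, was mapped by ChIP-seq (sequencing of DNA recovered with an antibody to the mark) in neural progenitor cells (NPC) and in the undifferentiated embryonic stem cells (ESC) they came from. The domains described here were broad in ESC and narrower in NPC. Each was a merged region on chromosomes 1 to 19 that held exactly 1 ESC island of at least 8000 bp and exactly 1 NPC island narrower than 8000 bp, where an island is a stretch of enriched windows called in 1 cell type. The rule found 811 such shrinking domains among 69310 merged regions. NPC were sorted for GFP after 5 days of differentiation of the mouse 46c line in medium with NB27 and Neuro2 supplements, and ESC were the same line left undifferentiated. In 46c cells GFP is expressed from the Sox1 locus, which is active in early neural progenitors, so the sorted NPC are cells chosen by that reporter from 1 line. Chromatin was cut with micrococcal nuclease (MNase) before recovery, with 1 antibody lot for both cell types. The study made 4 libraries, 1 H4K16ac and 1 MNase input library per cell type, and the deposited island lists come from the 2 ChIP libraries.

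H4K16ac sits on the tail of histone H4 that can touch the neighbouring nucleosome, and the acetyl group weakens that contact in purified chromatin. In mammals the mark is placed mainly by the acetyltransferase MOF (KAT8), which works within the MSL and NSL complexes, and sirtuin deacetylases such as SIRT1 and SIRT2 can remove it. It is known from active genes and enhancers in ES cells, where MOF is needed to maintain the pluripotent state, and from the dosage-compensated male X chromosome of Drosophila.

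Widths of the islands chose the domains, so the widths, reads and ratios of NPC to ESC below describe the chosen regions and were not tested. Each cell type had a single ChIP library, so differences have no replicate check and no p-value was computed. The NPC list held 24386370 island reads and the ESC list 17935144. Reads outside called islands were not used, so total depth is unknown, and bases outside islands are uncalled rather than free of the mark. Intervals are 95% intervals. Those of single read ratios cover counting error only, and those of shares and medians treat regions as independent draws. Positions are on mouse build mm9.

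The shrinking domains made up 13.6% of the 5950 broad ESC islands on these chromosomes (exact binomial interval 12.8% to 14.5%). A further 1901 broad ESC islands (31.9%) met a single NPC island that was itself at least 8000 bp wide and are called domains kept broad. Another 1016 (17.1%) met several NPC islands and 877 (14.7%) met none. The remaining 1345 lay in regions with several ESC islands.

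Within the shrinking domains, what was left in NPC was usually the smaller part of the ESC island. Median width was 4600 bp in NPC (4200 to 4800 bp) and 9600 bp in ESC (9400 to 9800 bp). The whole range ran from 600 to 7800 bp in NPC and from 8000 to 39200 bp in ESC, and 54.7% of domains had an ESC island under 10000 bp. NPC islands of the 811 domains summed to 3.68 Mb and ESC islands to 8.72 Mb, of which 3.46 Mb was common to both. The kept share, meaning the part of the ESC island that the NPC island still covered, had a median of 40.5% (38.2% to 42.5%). It was under 25% in 219 domains, 25% to 50% in 291, 50% to 75% in 225 and 75% or more in 76. The last group covers domains for which the name holds only weakly, since most of the ESC island was also called in NPC.

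The share of broad ESC islands that were shrinking domains was lower at greater ESC widths. The rule's condition of exactly 1 NPC island bears on these shares. The share was 26.8% (24.1% to 29.6%) for ESC islands of 8000 to under 9000 bp, 11.4% (9.54% to 13.5%) at 12000 to under 15000 bp and 0.862% (0.178% to 2.50%) at 30000 bp or more. The share with no NPC island was also lower at greater widths, at 26.4%, 11.5% and 1.72% in these classes, and the share with several ran the other way, at 7.72%, 16.5% and 38.5%. Median NPC width was 4400 bp for the narrowest of these ESC classes and 4800 bp for the middle one. In the widest class the 3 shrinking domains had a median NPC width of 3200 bp and a median kept share of 8.16%.

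**Figure D1:**
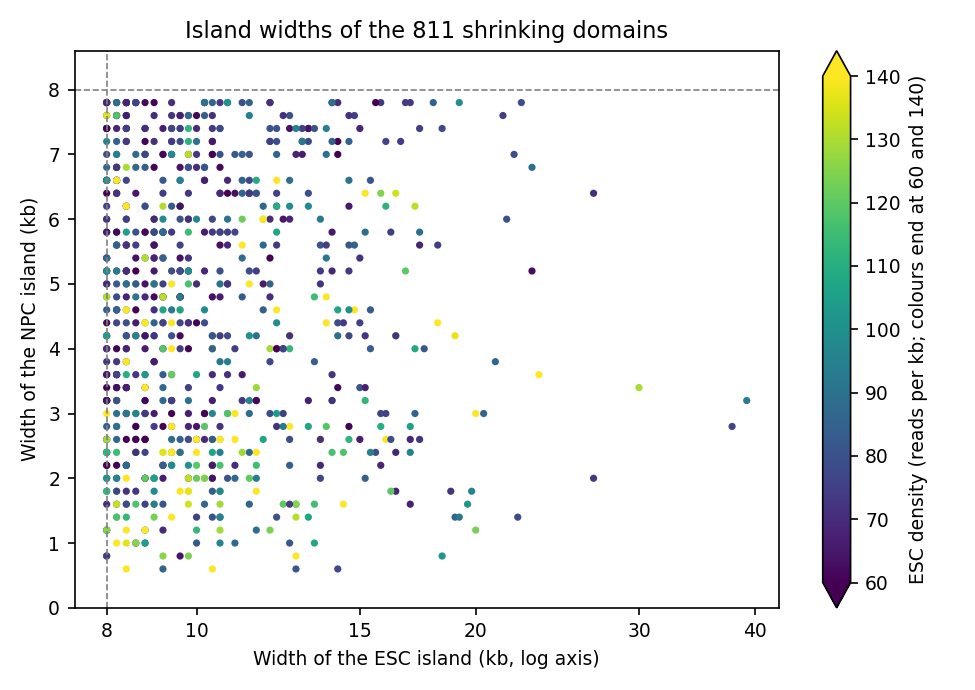
Width of the NPC island in kb (vertical axis) against width of the ESC island in kb (horizontal log axis) for the 811 shrinking domains, 1 point each, coloured by ESC reads per kb. Dashed lines mark the 8 kb limits of the rule. NPC widths run from 0.6 to 7.8 kb, points with more than 20 kb in ESC are few, and the 3 with at least 30 kb have NPC islands of 2.8, 3.2 and 3.4 kb.

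**Figure D2:**
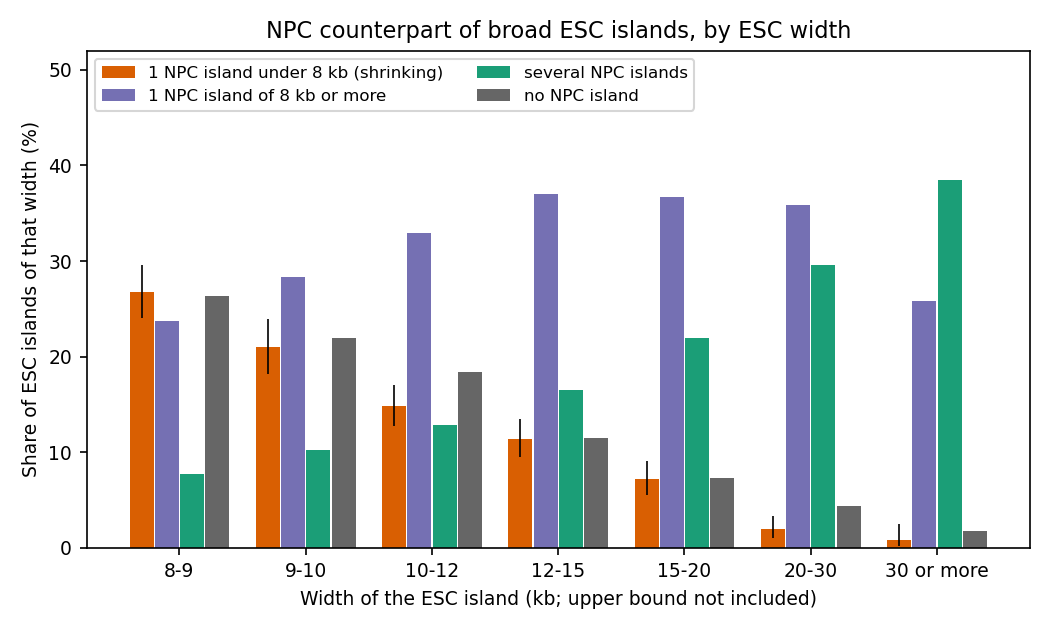
Share of broad ESC islands (vertical axis, %) by their NPC counterpart, in classes of ESC width in kb (horizontal axis). Error bars on the shrinking domains are exact 95% binomial intervals. Their share goes from 26.8% in the narrowest class to 0.862% in the widest, the share with no NPC island from 26.4% to 1.72%, and the share with several from 7.72% to 38.5%.

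The kept part usually lay inside the ESC island and towards one of its ends. In 644 of 811 domains (79.4%, 76.5% to 82.1%) the NPC island lay wholly inside the ESC island, against 625 of 1901 domains kept broad (32.9%, 30.8% to 35.0%). The NPC island is the narrower of the pair by the rule in every shrinking domain, which bears on this count. In the other 167 domains it reached past the ESC edge by a median of 600 bp and at most by 7400 bp. A flank of at least 600 bp was missing at both ends in 319 domains (39.3%). It was missing at the lower-coordinate end only in 262 and at the higher-coordinate end only in 219. In 11 domains neither end had lost that much. Strand could not be assigned to the ends, because the lists hold no genes.

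The place of the kept part was measured as an offset, with 0% for an NPC island centred in the ESC island and 100% for one flush with an ESC edge. Among the 644 inside cases the median offset was 83.3% (78.9% to 86.7%). The offset was at least 75% in 374 of them, under 25% in 83, and exactly 100% in 216. Wide NPC islands have few places to lie within the ESC island, since islands start on a grid of 200 bp. For NPC islands over 6400 bp the median offset was 100%, and for those over 1600 and up to 3000 bp it was 65%. In the 473 domains kept broad with a narrower NPC island wholly inside, the median offset was also 100%. A lean towards an end was thus not particular to shrinking domains.

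Read counts were also lower in NPC at the median. How far their difference went beyond that of widths depended on the scaling. The median domain held 339 reads in NPC (320 to 361) and 844 reads in ESC (821 to 868), for which counting error alone is 5.43% and 3.44%. All NPC islands of these domains held 283941 reads, 1.16% of NPC island reads, and their ESC islands 784822 reads, 4.38% of ESC island reads. Scaled to 1000000 island reads of each list (RPM), the read ratio of NPC to ESC had a median log2 of -1.79 (-1.85 to -1.66) and an SD of 0.98 over the domains. It was -1 or lower, a 2-fold difference, in 681 of 811 domains, while the percentage for all 14434 regions called in both lists was 28.0%. A single domain had a value above 0, a direction found in 22.1% of all regions called in both.

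In these domains, which were chosen by width, the width ratio was the larger part of that difference. The log2 ratio of widths had a median of -1.20, and the log2 ratio of densities, in reads per kb of called island scaled to island reads, had a median of -0.49 (-0.52 to -0.47). The width term was the larger of the 2 in 650 of 811 domains. The rule makes that term negative in every shrinking domain, which bears on its size and on this count. Domains kept broad had a median log2 density of -0.40 (-0.41 to -0.39), and all regions called in both -0.51. By density, 113 shrinking domains (13.9%) were at -1 or lower, beside 15.5% of all regions called in both, and 22 (2.71%) lay above 0, beside 1.65%. Densities are means over each whole island, so those of NPC and ESC cover different bases. Without scaling, the median log2 density was -0.049 (-0.078 to -0.022), so read counts then differed little more than widths did. The unscaled density was 77.2 reads per kb in NPC and 80.4 reads per kb in ESC at the median. It was higher in NPC in 345 shrinking domains (42.5%), beside 1108 of 1901 domains kept broad (58.3%). The NPC parts that remained were about as dense in reads as NPC islands in general, whose median was 76.6 reads per kb over 48170 islands. NPC islands of domains kept broad were denser, with a median of 82.3 reads per kb (81.7 to 83.1). Short NPC islands of shrinking domains had 102 reads per kb in the 73 domains where they spanned at most 1600 bp. The 5547 NPC islands of that width on these chromosomes had a median of 93.8.

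ESC density of the shrinking domains had the same middle as that of domains kept broad and a wider spread. Medians were 80.4 reads per kb (78.8 to 82.1) in shrinking domains and 80.5 (80.1 to 81.1) in domains kept broad, and the SDs across domains were 28.4 and 19.8. ESC densities under 70 reads per kb were found in 182 shrinking domains (22.4%) and in 190 domains kept broad (9.99%). Densities of at least 120 were found in 108 (13.3%) and 58 (3.05%). Domains with no NPC island had a median of 86.4 reads per kb and an SD of 32.4. Of these, 19.8% were under 70 reads per kb and 17.6% at 120 or more. The wider spread was thus not particular to shrinking domains.

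Shrinking domains, like ESC islands with no NPC counterpart, made up more of the sparsest and the densest broad ESC domains than of those of middle density. When the 4605 broad domains with a single ESC island were ranked by ESC density, shrinking domains made up 29.0% (24.9% to 33.4%) of the lowest decile, 10.5% (7.81% to 13.6%) of decile 6 and 29.7% (25.6% to 34.1%) of the highest. ESC islands with no NPC counterpart made up 29.7%, 9.59% and 41.2% of these deciles, and domains kept broad 21.2%, 56.6% and 15.6%. Median ESC width was 9600, 13000 and 10600 bp in them, so width moves with these shares. Among domains with ESC islands of 8000 to under 12000 bp, the shrinking share was 30.7% (26.7% to 35.0%) below 70 reads per kb, 20.5% (17.7% to 23.7%) at 70 to 80, and 36.4% (30.2% to 43.1%) at 120 or more. Density classes were chosen after the values were seen.

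**Figure D3:**
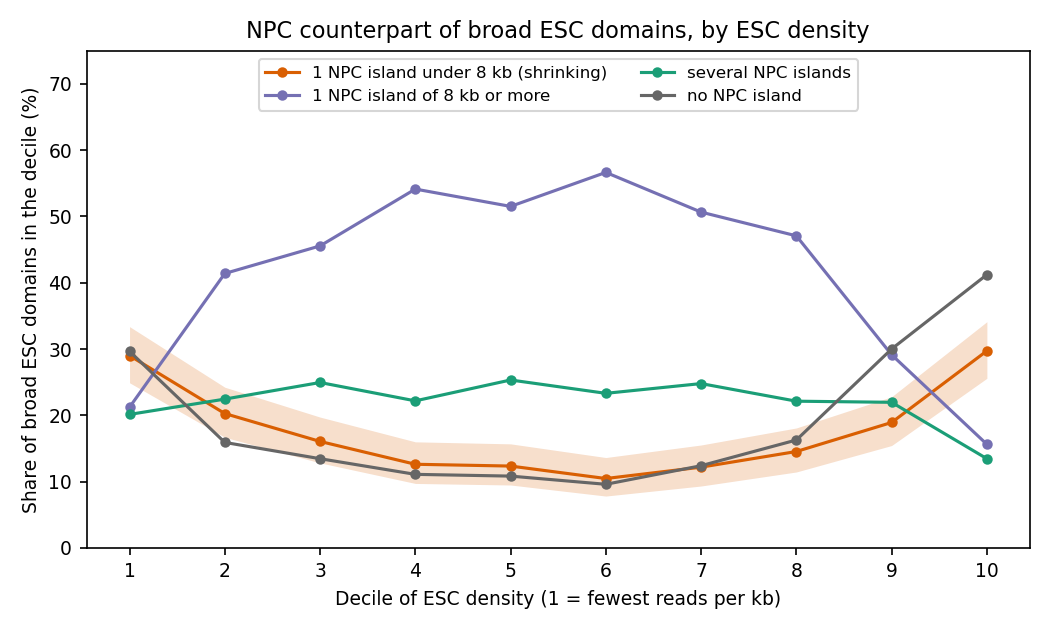
Share of broad ESC domains with a single ESC island (vertical axis, %) by their NPC counterpart, in deciles of ESC reads per kb (horizontal axis). The shaded band is the exact 95% binomial interval of the shrinking share. Shrinking domains make up 29.0% of the lowest decile, 10.5% of decile 6 and 29.7% of the highest. ESC islands with no NPC counterpart make up 29.7%, 9.59% and 41.2% of these, and domains kept broad are most frequent in the middle deciles.

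The dense and the sparse shrinking domains kept different parts of their ESC islands. In the 108 domains with at least 120 ESC reads per kb, the NPC island had a median width of 2600 bp (2400 to 3400 bp) and the kept share was 24.0% (20.7% to 26.1%). In the 182 domains under 70 reads per kb the NPC island had a median width of 4800 bp (4000 to 5200 bp) and the kept share was 45% (41.5% to 47.6%). Median ESC width was nearly alike, at 9800 and 9200 bp. Dense domains had a median of 234 NPC and 1440 ESC reads, and sparse domains a median of 328 NPC and 598 ESC reads. The median offset was 64.9% (52% to 76%) in the dense domains and 89.2% (76.5% to 100%) in the sparse ones. Offset moved with NPC width over all shrinking domains, at 65% for NPC islands over 1600 and up to 3000 bp and 87.9% for those over 4600 and up to 6400 bp, and the part of width in the offsets of the dense and sparse domains was not tested. NPC density had a median of 85 reads per kb in the dense domains and 70.5 in the sparse ones, beside ESC medians of 138 and 65.0, which the classes themselves set apart. In the classes between, the kept share was 47.8% at 70 to 80, 41.5% at 80 to 100 and 25% at 100 to 120 ESC reads per kb. In kept share the sparse domains were thus close to those of 70 to 100 reads per kb.

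Surroundings were compared as the share of bases within 250 kb to each side, the domain itself left out, that lay in other islands. Around shrinking domains other NPC islands covered a median of 27.0% (25.4% to 28.3%). Around domains kept broad they covered 38% (37.1% to 39.2%), a difference of -11.0 percentage points (-13.0 to -9.42). Values were 36.1% around ESC islands with several NPC islands and 23.9% around those with none. Other ESC islands covered 19.9% around shrinking domains, 23.5% around domains kept broad, 23.5% where the ESC island met several NPC islands and 18.9% where it met none. The classes overlapped widely, since the interquartile range of NPC coverage was 16.1% to 39.3% for shrinking domains and 24.8% to 51.2% for domains kept broad. The sparse shrinking domains had 16.8% (14.2% to 19.3%) of surrounding bases in NPC islands and the dense ones 31.4% (27.5% to 36.0%). Surrounding ESC coverage was also lower for the sparse domains, at 12.8% against 22.4% for the dense ones.

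**Figure D4:**
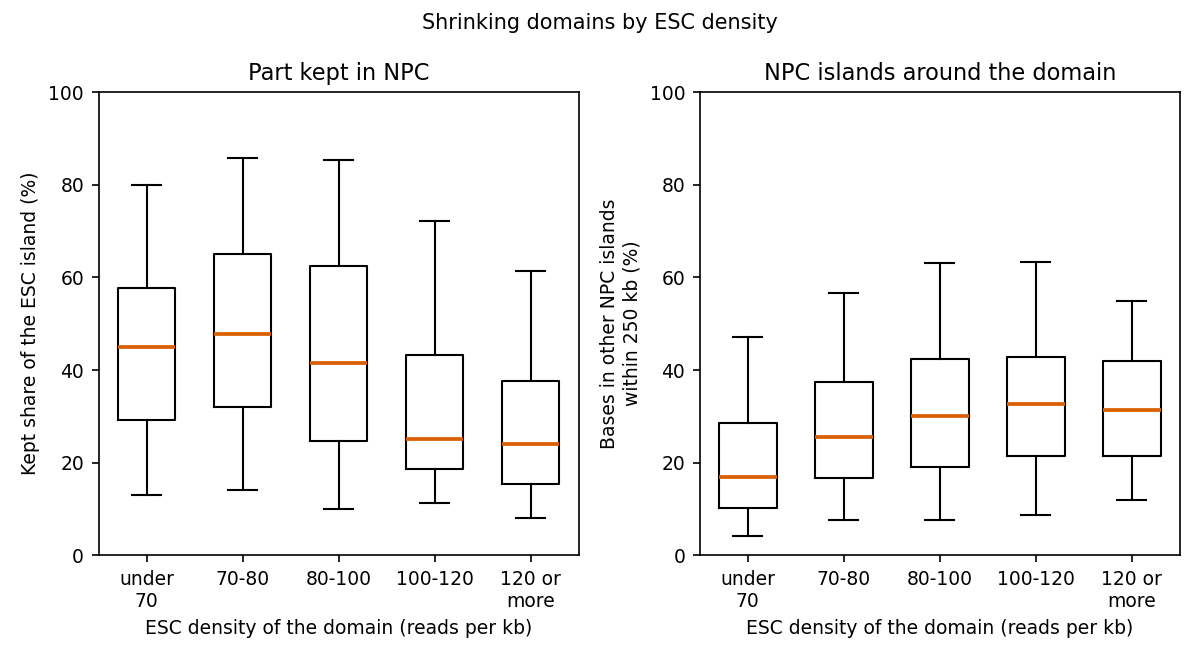
Kept share of the ESC island (left, %) and bases within 250 kb that lie in other NPC islands (right, %) for shrinking domains in classes of ESC reads per kb (horizontal axes). Boxes show the interquartile range with the median in colour, and whiskers the 5th and 95th percentiles. The median kept share is 45% under 70 reads per kb and 24.0% at 120 or more, and NPC coverage around the domain is 16.8% and 31.4%.

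A neighbouring NPC island within 2 kb of the domain was present in 271 shrinking domains (33.4%, 30.2% to 36.8%), against 1170 domains kept broad (61.5%, 59.3% to 63.7%). For ESC islands with several NPC islands the share was 55.7%, and for those with none 17.9%. The nearest other NPC island lay at a median of 4200 bp from shrinking domains and 1200 bp from domains kept broad. The rule bears on these contrasts, since a further NPC island touching the ESC island puts the region among those with several. Shrinking domains left a median of 6000 bp of ESC island uncovered by the NPC island, and domains kept broad 200 bp. How far the contrasts depend on the rule was not tested. Another ESC island within 2 kb was found for 35.9% of shrinking domains, 47.7% of domains kept broad, 47.3% of ESC islands with several NPC islands and 35.7% of those with none. NPC signal called just outside a merged region does not count as kept.

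The domain that lost most called bases lay on chromosome 4, positions 154545201 to 154584400. Its NPC island was 3.2 kb wide with 229 reads and its ESC island 39.2 kb wide with 3656 reads, a log2 RPM of -4.44 (-4.64 to -4.25). The NPC island began 7 kb from the lower-coordinate end and left 29 kb uncalled on the other side. Surroundings were rich in NPC islands, which covered 63.7% of the bases around it. Next was chromosome 11, positions 107263801 to 107301600, with 192 NPC reads in 2.8 kb and 2871 ESC reads in 37.8 kb. The third, on chromosome 18 at 65732001 to 65762000, was also dense in ESC, with 228 NPC reads in 3.4 kb and 3889 ESC reads in 30 kb, or 67.1 and 130 reads per kb. Chromosome 19 from 24446201 and chromosome 9 from 20455601 followed, with NPC islands of 2 and 1.4 kb and ESC islands of 26.8 and 22.2 kb. In all 5 the NPC island lay on the lower-coordinate side of the ESC centre, the log2 RPM was between -4.54 and -4.26, and 5.41% to 11.3% of the ESC island was kept.

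**Figure D5:**
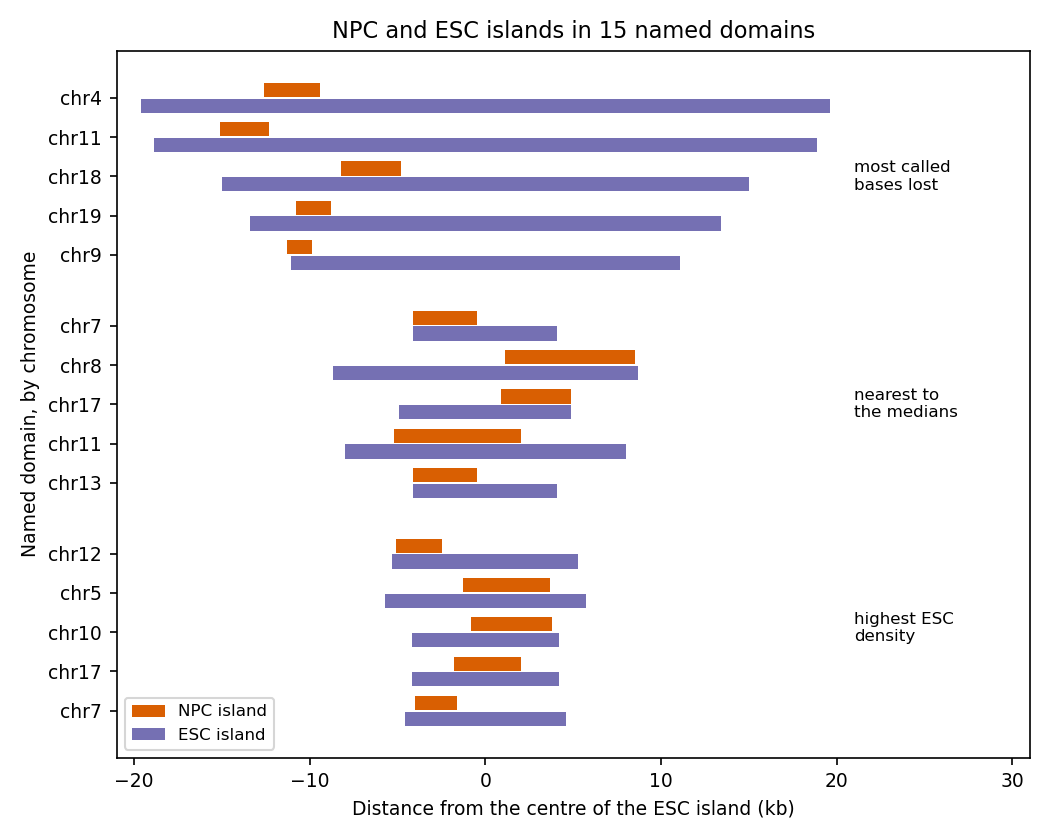
NPC islands (orange) above ESC islands (violet) in 15 named domains, drawn to scale as distance from the centre of the ESC island in kb (horizontal axis). Rows are the 5 domains that lost most called bases, the 5 nearest to the medians and the 5 with the highest ESC density. NPC islands span 1.4 to 7.4 kb and ESC islands 8.2 to 39.2 kb.

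Domains close to the medians of width ratio and read ratio show what was typical. On chromosome 7, positions 109116601 to 109124800, the NPC island held 257 reads in 3.6 kb and the ESC island 648 reads in 8.2 kb, with a log2 RPM of -1.78 (-1.99 to -1.57). Both islands began at the same base, and the 4.6 kb that was lost lay at the higher-coordinate end. On chromosome 8 from 18730601, 504 NPC reads in 7.4 kb stood against 1304 ESC reads in 17.4 kb, and 9.8 kb was lost at the lower-coordinate end. The chromosome 17 domain from 80630401 had 233 NPC and 593 ESC reads and lost 5.8 kb, again from one end. On chromosome 11 from 54527201, with 497 NPC and 1219 ESC reads, flanks of 2.8 and 6 kb were lost at the 2 ends. The chromosome 13 domain from 13849601 had 185 NPC and 440 ESC reads. Their kept shares were between 40.8% and 45%.

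The domain with the highest ESC density lay on chromosome 12, positions 111932801 to 111943400. It had 228 NPC reads in 2.6 kb and 2725 ESC reads in 10.6 kb, or 87.7 reads per kb in NPC and 257 in ESC, a log2 RPM of -4.02 (-4.22 to -3.83). Other NPC islands covered 75.1% of the bases around it. Next came chromosome 5, positions 123580601 to 123592000, with 369 NPC reads in 5 kb and 2462 ESC reads in 11.4 kb. The domains on chromosome 10 from 27538001, chromosome 17 from 34253401 and chromosome 7 from 25668601 had 67.4, 112 and 70.8 NPC reads per kb beside 212, 211 and 207 ESC reads per kb. In the chromosome 10 domain 54.8% of the ESC island was kept, and its log2 density was the lowest of these 5, at -2.10. That domain stood nearly alone, with NPC islands over 0.44% and ESC islands over 3.04% of the bases around it.

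At the other end, the highest log2 RPM was 0.04 (-0.09 to 0.17), on chromosome 14 at 60608801 to 60617600. There 1206 NPC reads in 7.4 kb stood beside 862 ESC reads in 8.8 kb, or 163 and 98.0 reads per kb, so this domain was denser in NPC and not lower by reads. The next 4 had log2 values between -0.36 and -0.20 and widths near both limits of the rule, with NPC islands of 7.4 to 7.8 kb and ESC islands of 8 to 8.6 kb. In 1 of them, on chromosome 11 from 97252601, the islands overlapped by only 2.38% of the ESC island, and the NPC island reached 7.4 kb beyond it. Its narrower NPC island thus lay beside the ESC island more than within it.

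Short, dense NPC remnants gave the highest density ratios. Each ratio sets the remnant against the mean of the whole ESC island, and ESC reads on the remnant's own bases are unknown. On chromosome 7, positions 129258801 to 129268400, the NPC island held 105 reads in 0.8 kb and the ESC island 620 reads in 9.6 kb, or 131 and 64.6 reads per kb, a log2 density of 0.58. On chromosome 9 from 107666001 the values were 157 NPC reads in 1 kb and 955 ESC reads in 11 kb. Chromosome 2 from 31525201 and chromosome 5 from 136250001 had NPC islands of 0.6 kb with 84 and 89 reads, and the chromosome 14 domain above was the fifth. In the first 4 of these at most 9.09% of the ESC island was kept, and the log2 RPM was between -4.16 and -3.01.

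Domains at the edges of the rule differed from those just outside it by 1 window. ESC islands of exactly 8000 bp were found in 72 shrinking domains, and 64 regions with an ESC island of 7800 bp and an NPC island under 8000 bp fell outside. NPC islands of 7800 bp were found in 42 shrinking domains, and 32 regions with an NPC island of 8000 bp and a broad ESC island fell outside. Just inside, chromosome 1 from 43575601 had 299 NPC reads in 4 kb and 485 ESC reads in 8 kb, and just outside, chromosome 1 from 54892601 had 390 NPC reads in 5.2 kb and 541 ESC reads in 7.8 kb. On the NPC side, chromosome 1 from 37401001 had 702 NPC reads in 7.8 kb and 751 ESC reads in 8.4 kb inside the rule. Chromosome 1 from 33678201 had 684 NPC reads in 8 kb and 876 ESC reads in 11.2 kb outside it.

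Shrinking domains were found on all 19 chromosomes. The most were on chromosome 11 (78) and the fewest on chromosome 13 (26). As a share of the broad ESC islands of a chromosome they were most frequent on chromosome 3, with 33 of 132 (25%, 17.9% to 33.3%), and least frequent on chromosome 8, with 41 of 401 (10.2%, 7.44% to 13.6%). Chromosomes 14, 18 and 9 followed chromosome 3, at 20.1%, 19.2% and 18.3%, with intervals that overlap it. In windows of 1 Mb, 355 held 1 shrinking domain, 121 held 2 and 61 held 3 or more. The fullest window, on chromosome 14 from 4000001 to 5000000, held 7 among its 22 broad ESC islands, and the windows from 6000001 and 8000001 on that chromosome held 5 each. Windows on chromosome 8 from 73000001 and chromosome 11 from 6000001 held 6 each. A shrinking domain within 100 kb was found for 25.5% of shrinking domains, 22.3% of domains kept broad, 26.8% of ESC islands with several NPC islands and 23.9% of those with none.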

How the data were processed

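H4K16ac ChIP and MNase input libraries were made from NPC and from ESC, 1 each, and the lists analysed here come from the 2 ChIP libraries. The submitters' processing notes name SICER 1.1, Bowtie 0.12.7, bedtools 2.10.1, SAMtools 0.1.7 and CASAVA 1.8.2 with build mm9, and the list names add the SICER settings, a 200 bp window, a 600 bp gap and an FDR of 0.01. Each deposited list gives an island's chromosome, start, end and a whole number, read as the count of ChIP reads, which the authors deposited unscaled. How duplicates and the input were handled is not given in the sources used here. Called widths also depend on sequencing depth and background, which are unknown here.

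Starts and widths fell on the window grid in 100% of islands, and starts and ends were both moved by 1 to count from 1. Islands sharing at least 1 base were merged, and all 69310 regions equalled those of bedtools 2.31.1. Width is end minus start plus 1. RPM is reads per 1000000 island reads of the list, with an exact Clopper-Pearson interval. Intervals of medians are order statistics. Those of differences of medians join the distances from each median to its limit as the root of their summed squares. As a check of the code on simulated data, all 200 shrunken regions placed in the ESC list were recovered with 0 false calls. The simulated NPC list held only islands inside or equal to broad ESC islands, so error rates in the real lists were not measured. With reads drawn under counting error alone, 94.3% of intervals held the ratio simulated for the 811 domains. The domains, the classes and the naming rule were chosen with earlier results of these data known. The rule named 5 domains each by lost bases, ESC density, log2 RPM, log2 density and nearness to the medians, and the 3 on either side of each width limit, of which the first is given. Alternatives covered width limits, read minimum, overlap, gaps, list lengths, scaling and window. No genome or gene annotation of mm9 was used here, so neither sequences nor genes are given. Python 3.11.15, numpy 2.4.6, pandas 2.3.3, scipy 1.17.1 and matplotlib 3.10.9 were used.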

Additional observations from a re-analysis of the deposited data

How the results depend on the processing

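Recomputing under 12 settings gave 57 values, of which 34 kept within the reported interval (for the count of domains, within 1.5 times it), and 23 left it. The number of domains was 1266 with a width limit of 6000 bp and 538 with 10000 bp. With the 10000 bp limit the median kept share was 45% and the median log2 RPM -1.62. Islands with at least the median reads of their list gave a kept share of 54.2%, 71.6% of domains inside, an offset of 88.9%, a log2 RPM of -1.29, a log2 density of -0.46 and a difference in ESC density of -2.98 reads per kb. Joining islands less than 2000 bp apart gave 32.5%, an offset of 77.8%, -2.03, -0.45 and a difference in NPC coverage of -8.3 points. Equal list lengths gave 44.2% and a log2 RPM of -1.61. Scaling by reads in regions called in both lists, or by their median ratio, gave a log2 RPM of -1.38 or -1.29. Without scaling to island reads the log2 density was -0.049. The difference in NPC coverage was -13.6 points within 100 kb, -8.43 within 1 Mb and -8.56 for ESC islands of 8000 to under 12000 bp, the last chosen after seeing the data. The difference in ESC density from domains kept broad, -0.087 reads per kb (-1.85 to 1.68), has an interval that spans 0 and gives no direction. With the read minimum the interval lay below 0 (-4.62 to -1.66). The difference was 1.27 for ESC islands of 8000 to under 12000 bp, the one change of sign. With the 10000 bp limit the highest share of broad ESC islands was on chromosome 19 and the lowest on chromosome 17. For these shifts the cause was not tested. No paired analysis was possible because each cell type had 1 ChIP library, and for that reason no replicate could be left out. The unknown depth outside islands limits what a missing flank means.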

Other observations

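Outside chromosomes 1 to 19 the same rule found 1 region on chromosome X, which had 23 ESC islands of at least 8000 bp, and 0 on chromosome Y, which had 2.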
